A study of Homo sapiens with 8 samples.

Results

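Cytosolic RNA and DNA sensing was read here from 9 genes, taken as the records that carry their names among the 60649 gene identifiers listed for each library: RIGI (listed under its older name, DDX58), IFIH1, DHX58, MAVS, CGAS, STING1, EIF2AK2, TBK1 and IKBKE. They were taken by name for the roles of their proteins, but with earlier results of these data known, as were the gene lists used below. Their shares called, set beside those of all genes, are therefore descriptions. PolyA RNA was sequenced from HCT116, an established line of human colorectal carcinoma, and its derivative UF1hypo. UF1hypo was derived from 1 edited cell in which a single allele of UHRF1 had been disrupted (UHRF1+/-), so every UF1hypo library came from that clone and the clone cannot be told apart from its genotype. Both lines had been infected with a lentivirus that carried either a scrambled control hairpin, shScr, or shUHRF1, which targets UHRF1, and had been selected with puromycin, so the controls too carried a hairpin vector. Each of the 4 groups had 2 libraries, 8 in all, numbered replicate 1 and replicate 2 in the labels, and nothing stated whether these came from separate cultures, so p-values measure the spread between these libraries, which may be technical.

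In background, the cytosol of a human cell is surveyed for misplaced nucleic acid. RIG-I (RIGI) and MDA5 (IFIH1) are helicases that bind double-stranded RNA and, helped or restrained by their relative LGP2 (DHX58), engage MAVS on the mitochondrial surface, whereas cGAS (CGAS) binds DNA and makes a cyclic dinucleotide that activates STING (STING1) on the endoplasmic reticulum. Both routes meet at the kinases TBK1 and IKKε (IKBKE), which phosphorylate interferon regulatory factors, while PKR (EIF2AK2) binds double-stranded RNA and stops translation through eIF2α. UHRF1 brings the maintenance methyltransferase DNMT1 to replicating DNA, and loss of DNA methylation is known in colorectal cancer cells for the release of repeat transcripts that these RNA sensors can read. Several of the genes, the helicases and PKR among them, are themselves interferon-stimulated.

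UHRF1, the targeted gene, was listed in TPM (transcript abundance scaled for transcript length and library total) at 87.5 and 98.4 with shScr and 31.7 and 32.7 with shUHRF1 in HCT116. In UF1hypo it stood at 47.3 and 50.6 with shScr and 34.1 and 21.1 with shUHRF1. Every shUHRF1 library lay below every shScr library of its own line. The tables hold no read totals. The commonest ratio of coverage to FPKM would imply 5.42 to 7.83 gigabases of aligned sequence a library, but 10.8% to 13.1% of the records above 1 FPKM held it (within 0.006), so the depth is a rough estimate. The replicate libraries correlated at 0.9907 to 0.9923 (Pearson's r of log2(TPM + 1) across 13781 genes, which are not independent replicates) in 3 groups and at 0.9558 in UF1hypo shUHRF1. In UF1hypo shUHRF1 the gap between replicates followed the GC content of the transcript (Spearman's rho -0.8144 across the same genes), with AT-rich transcripts higher in replicate 2. In UF1hypo shScr that rho was 0.5077, and in the HCT116 groups it was 0.042 and 0.068. Each result of the sensing genes that uses UF1hypo shUHRF1 is therefore given with its value without each of those libraries where the call moved. For the lists of other genes such values are given only in part or not at all, so how far their calls lean on 1 library is not shown. KRT8, KRT18, KRT19 and EPCAM, of colorectal epithelium, were high in every library, whereas CDX1 and VIL1 of the same list stayed under 0.5 TPM. That list holds 10 genes, of which 6 were above 1 TPM in at least 1 library of each group. PTPRC, which defines leukocytes, was at 0 in 6 libraries and at 0.0561 and 0.0728 TPM in UF1hypo shUHRF1.

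In HCT116 shScr the order of mean TPM was MAVS (41.3 ± 1.25, SD, n = 2, as in all means below), TBK1 (36.2 ± 1.33), EIF2AK2 (16.7 ± 1.12), STING1 (14.5 ± 2.50), IKBKE (4.60 ± 0.659), IFIH1 (4.40 ± 0.128), RIGI (4.08 ± 0.922), DHX58 (1.55 ± 0.694) and CGAS (0). The libraries of EIF2AK2 and STING1 overlapped, as did those of IKBKE, IFIH1 and RIGI, so these neighbours in the order were not separated by their spread. In UF1hypo shUHRF1 the order was instead IFIH1 (124 ± 28.1), DHX58 (99.5 ± 18.6), RIGI (83.7 ± 37.6), EIF2AK2 (55.9 ± 36.6), MAVS (42.0 ± 4.17), TBK1 (31.6 ± 19.8), STING1 (15.6 ± 2.57), IKBKE (12.7 ± 2.70) and CGAS (0). The 3 RNA helicases, lowest of the detected genes in HCT116 shScr, thus led the order of mean TPM there, although their libraries overlapped with one another and those of RIGI with EIF2AK2. By listed coverage the order differed. In UF1hypo shUHRF1 replicate 1 MAVS (145) lay above RIGI (81.1), and in replicate 2 EIF2AK2 (201) lay above RIGI (143) and DHX58 (136). Levels are per transcript length. In UF1hypo shUHRF1 the order also differed between the libraries, since MAVS lay above EIF2AK2 and TBK1 in replicate 1 and below both in replicate 2.

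RIGI encodes the helicase that recognises short or 5′-triphosphorylated double-stranded RNA. Its record spanned chr9:32455302-32526208 on the minus strand (GRCh38). In HCT116, RIGI was listed at 4.73 and 3.42 TPM with shScr and at 6.14 and 3.95 with shUHRF1. In UF1hypo it was listed at 30.2 and 23.5 TPM with shScr and at 57.1 and 110.3 with shUHRF1. The HCT116 groups overlapped, both UF1hypo groups lay wholly above them, and the UF1hypo shUHRF1 libraries lay above UF1hypo shScr with a 1.93-fold gap between them. A protein-coding record without an established symbol overlaps RIGI on the same strand and was listed at 0.0820 to 2.92 TPM, so some reads could belong to either.

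IFIH1 encodes the helicase for long double-stranded RNA and spanned chr2:162267074-162318684 on the minus strand. The HCT116 libraries held 4.49 and 4.31 TPM of it with shScr and 4.23 and 4.83 with shUHRF1, and the UF1hypo libraries 41.4 and 38.8 with shScr and 105 and 144 with shUHRF1. The order of the groups was the same as for RIGI, and the replicates of IFIH1 were closer in each of the 4 groups.

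DHX58 encodes LGP2, a relative of both that lacks the signalling domains, and spanned chr17:42101404-42112714 on the minus strand. Its level in HCT116 was 2.04 and 1.06 TPM with shScr and 1.14 and 3.01 with shUHRF1, and in UF1hypo 8.32 and 7.71 with shScr and 113 and 86.4 with shUHRF1. Its step within UF1hypo was the widest of the 3, a 12.4-fold difference in mean TPM against 3.12-fold for RIGI and 3.10-fold for IFIH1. In HCT116 the listed coverage of DHX58 was 1.04 to 3.21, low as well, although coverage did not keep 1 ratio to FPKM across genes.

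Added together, the 3 helicases summed to 8.80 to 11.8 TPM in the 4 HCT116 libraries. They summed to 79.9 and 70.1 TPM in UF1hypo with shScr and to 274 and 341 with shUHRF1. Set against MAVS in the same library, that sum was 0.218 to 0.267 of the MAVS level in the 4 HCT116 libraries, 1.89 and 1.51 of it in UF1hypo with shScr, and 6.10 and 8.73 of it with shUHRF1. The summed sensors therefore went from below their adaptor to several times above it in TPM, while MAVS stayed between 39.1 and 46.3 TPM. The listed coverage did not keep these proportions. In UF1hypo shScr replicate 2 it was 32.5, 82.4 and 13.2 for RIGI, IFIH1 and DHX58 and 146 for MAVS. In UF1hypo shUHRF1 replicate 2 it was 143, 288 and 136, and 117 for MAVS. The size of the sum against MAVS therefore depends on the measure.

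The start regions of the 3 genes that held either GAAA pair described below, and of MAVS, which held neither, are shown so that the motifs can be seen in place. RIGI held only the pair that was added after its sequence had been read. The table of RefSeq start regions (GRCh38.p14, 250 bases before to 50 after the start) held 6 of the 9 genes (RIGI, IFIH1, MAVS, EIF2AK2, TBK1 and IKBKE); DHX58, CGAS and STING1 were not matched. Both strands were searched for GAAANNGAAA, the core of an interferon-stimulated response element, for the closer pair GAAANGAAA, which was added after the RIGI sequence had been read, and for TTCNNNGAA, the STAT dimer motif. The first 2 differ by 1 base of spacing and can overlap each other. In all 35116 start regions, 3.57% held GAAANNGAAA, 3.12% held GAAANGAAA, 6.40% held either and 7.66% held TTCNNNGAA. Capitals mark a match to either GAAA pair, read on whichever strand.
RIGI, chr9:32526147-32526446, minus strand: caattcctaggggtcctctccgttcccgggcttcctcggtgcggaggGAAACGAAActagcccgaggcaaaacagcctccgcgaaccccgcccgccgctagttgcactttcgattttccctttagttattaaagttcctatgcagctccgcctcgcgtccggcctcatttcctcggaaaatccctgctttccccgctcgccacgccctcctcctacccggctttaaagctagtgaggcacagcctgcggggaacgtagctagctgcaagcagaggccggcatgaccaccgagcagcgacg
IFIH1, chr2:162318635-162318934, minus strand: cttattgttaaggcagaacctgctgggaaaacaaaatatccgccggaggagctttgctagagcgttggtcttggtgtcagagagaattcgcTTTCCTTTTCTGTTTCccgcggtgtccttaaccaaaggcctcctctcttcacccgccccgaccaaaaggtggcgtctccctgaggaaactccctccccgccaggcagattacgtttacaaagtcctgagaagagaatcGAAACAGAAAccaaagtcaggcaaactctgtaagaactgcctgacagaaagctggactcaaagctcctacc
EIF2AK2, chr2:37156931-37157230, minus strand: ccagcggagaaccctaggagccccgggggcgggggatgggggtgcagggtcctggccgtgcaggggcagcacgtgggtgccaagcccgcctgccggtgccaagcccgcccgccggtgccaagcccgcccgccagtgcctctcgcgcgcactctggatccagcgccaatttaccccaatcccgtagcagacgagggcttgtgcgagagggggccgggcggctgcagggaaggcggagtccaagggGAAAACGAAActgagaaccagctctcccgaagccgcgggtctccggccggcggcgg
MAVS, chr20:3846584-3846883, plus strand: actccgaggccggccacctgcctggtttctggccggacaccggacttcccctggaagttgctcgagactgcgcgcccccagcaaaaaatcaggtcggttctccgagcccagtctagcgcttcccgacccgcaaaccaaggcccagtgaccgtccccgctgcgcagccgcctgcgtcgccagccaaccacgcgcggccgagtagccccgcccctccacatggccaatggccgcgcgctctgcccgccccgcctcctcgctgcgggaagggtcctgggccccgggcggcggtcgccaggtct

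RIGI held 1 GAAANGAAA match, GAAACGAAA, at positions -203 to -195 from the start. IFIH1 held 3 GAAANNGAAA matches, of which GAAACAGAAA lay at -21 to -12 and a pair on the other strand overlapped each other between -159 and -144. EIF2AK2 held 1, GAAAACGAAA, at -6 to 3, although the RefSeq start used there lay 542 bases inside the record of the files. The start regions of MAVS, TBK1 and IKBKE held neither GAAA pair, and none of the 6 held TTCNNNGAA, which says only that these letters were not in these windows. CpG counts also differed: 27 in RIGI, 12 in IFIH1, 34 in MAVS, 30 in EIF2AK2, 35 in TBK1 and 5 in IKBKE, against a median of 14 over all start regions. A match is a description of letters and was not tested as a site.

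MAVS, the mitochondrial adaptor of both RNA helicases (chr20:3846799-3876123, plus strand), stood at 42.2 and 40.4 TPM with shScr and 44.4 in both shUHRF1 libraries of HCT116, and at 42.3 and 46.3 with shScr and 44.97 and 39.1 with shUHRF1 in UF1hypo. All 8 libraries thus lay between 39.1 and 46.3 TPM. No comparison called it, and its 95% interval of the log2 difference ran from -0.43 to 0.28 for the knockdown in UF1hypo and from -0.26 to 0.46 for UF1hypo against HCT116 with shScr, which leaves out a 2-fold difference in either direction under the spread estimated by limma.

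CGAS, the DNA sensor (chr6:73413515-73452297, minus strand), was listed at 0 in 7 libraries and at 0.0748 TPM in HCT116 shUHRF1 replicate 2, so it entered no test. STING1, its downstream adaptor (chr5:139475533-139482935, minus strand), had 12.7 and 16.3 TPM with shScr and 13.9 and 14.1 with shUHRF1 in HCT116. In UF1hypo it had 28.8 and 34.6 with shScr and 17.4 and 13.7 with shUHRF1. STING1 was thus high in UF1hypo shScr alone, with both of its libraries there above all 6 others. Of the 8 detected genes it was the only one with both UF1hypo shUHRF1 libraries below both of their shScr controls.

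EIF2AK2, which encodes PKR (chr2:37099210-37157522, minus strand), was found in HCT116 at 17.5 and 15.9 TPM with shScr and 16.8 and 14.97 with shUHRF1, and in UF1hypo at 50.3 and 41.6 with shScr and 29.99 and 81.8 with shUHRF1. All 4 UF1hypo libraries lay above all 4 HCT116 libraries, and the UF1hypo shUHRF1 pair straddled the UF1hypo shScr pair. GPATCH11 overlaps EIF2AK2 on the opposite strand and was listed at 2.64 to 8.01 TPM; whether reads were counted by strand was not given in the sources used here.

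Of the kinases, TBK1 (chr12:64452090-64502114, plus strand) ran at 37.1 and 35.3 TPM with shScr and 34.1 and 31.5 with shUHRF1 in HCT116, and at 32.9 and 28.3 with shScr and 17.6 and 45.5 with shUHRF1 in UF1hypo. The last pair spanned every other library. IKBKE, which encodes the inducible relative of TBK1 (chr1:206470476-206496889, plus strand), was lower in TPM. The HCT116 libraries gave 5.06 and 4.13 TPM with shScr and 4.02 and 3.16 with shUHRF1. The UF1hypo libraries gave 6.80 and 7.38 with shScr and 14.6 and 10.8 with shUHRF1. Here none of the groups overlapped, and IKBKE was lower with shUHRF1 in HCT116 and higher with shUHRF1 in UF1hypo. The margin in HCT116 was narrow, at 4.02 against 4.13 TPM.

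Differences were tested with limma on log2(TPM + 1) in 1 fit of all 8 libraries, over protein-coding genes above 1 TPM in at least 1 library of a comparison. A gene was called when the Benjamini-Hochberg adjusted p over all genes tested was under 0.05 and the log2 fold change was beyond 1 in size, on a scale that understates the change of genes near 1 TPM. CGAS apart, each of the 8 other genes was above 1 TPM in every library, so none entered a test through a single group. An exact permutation test of 2 libraries against 2 could not go below a two-sided p of 0.33, so no single gene was tested that way. In bulk RNA, fewer cells that express a gene and less RNA per cell cannot be told apart.

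The knockdown in HCT116 asked whether lowering UHRF1 RNA in the parental line moved these genes. UHRF1 itself had a log2 fold change of -1.50 (SE 0.222, limma adjusted p = 0.0564). None of the 8 sensing genes was called, where 0.0708% of the 12704 genes tested were (0.0472% as higher and 0.0236% as lower), and 0 of the 8 had an unadjusted p under 0.05. Their log2 fold changes ran from -0.29 for IKBKE to 0.24 for RIGI, with DHX58 at 0.23 and IFIH1 at 0.03, and the limma adjusted p was 1 for each. The 95% interval for RIGI was -0.51 to 0.99 and that for IFIH1 was -0.43 to 0.49. The share called over all genes rested on 9 genes, and that number was 99 or 100 without UF1hypo shUHRF1 replicate 1 or 2, 89 with only the 4 HCT116 libraries in the fit and 0 without any 1 HCT116 library.

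The knockdown in UF1hypo compared shUHRF1 with shScr within the clone. DHX58, IFIH1 and RIGI rose, which is 3 of the 8 tested, where 8.53% of the 13620 genes tested were called in either direction and 7.39% as higher. DHX58 rose by 3.47 on the log2 scale (SE 0.331, limma adjusted p = 0.000381), IFIH1 by 1.59 (SE 0.203, adjusted p = 0.00163) and RIGI by 1.54 (SE 0.336, adjusted p = 0.0193), each in both libraries. STING1 had a log2 fold change of -0.99 (SE 0.209, limma adjusted p = 0.0172), short of the size needed for a call, and IKBKE one of 0.75 (SE 0.228, adjusted p = 0.066). EIF2AK2 (0.11), MAVS (-0.08) and TBK1 (-0.10) had small estimates, of which those for EIF2AK2 and TBK1 had 95% intervals of -0.77 to 1.00 and -0.92 to 0.73. The median log2 fold change over the 8 was 0.43, beside 0.04 over all genes tested. UHRF1 had a log2 fold change of -0.84 (SE 0.221, adjusted p = 0.0406) here, also short of a call. Without UF1hypo shUHRF1 replicate 2, 10.4% of all genes were called higher and 6.41% lower, and without UF1hypo shScr replicate 1, 4.36% and 0.472%.

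The libraries behind this comparison mattered for individual genes. Without UF1hypo shUHRF1 replicate 1 the log2 fold changes of DHX58, IFIH1 and RIGI were 3.28, 1.82 and 2.01, and without replicate 2 they were 3.66, 1.36 and 1.07, all still called. STING1 was called lower (-1.14) without replicate 1. The call of RIGI was lost without UF1hypo shScr replicate 1 (log2 fold change 1.71, limma adjusted p = 0.0718) and without replicate 2 (1.37, adjusted p = 0.128). EIF2AK2 changed sign with the UF1hypo shUHRF1 library left out, 0.82 without its replicate 1 and -0.59 without its replicate 2. So did TBK1, 0.56 and -0.76, with neither gene called. CD3D, a T cell gene, was called higher in the same comparison (0 and 0.287 TPM against 5.05 and 2.99), 1 of the 5 leukocyte markers tested and 1 of 2 of them at or below 1 TPM in both UF1hypo shScr libraries, so it entered the test through the group where it was high. The summed leukocyte list was 4.01 to 5.29 TPM in UF1hypo shScr and 7.57 to 12.3 in UF1hypo shUHRF1, and CD2 was at 0 throughout. Fibroblast and endothelial markers summed to 23.2 and 29.1 TPM with shScr and to 66.9 and 38.7 with shUHRF1 in UF1hypo. Epithelial markers summed to 8813 and 9086 TPM with shScr and to 12706 and 9857 with shUHRF1. No tested marker of the latter lists was called here, and the part of all these lists in the results was not tested.

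**Figure D1:**
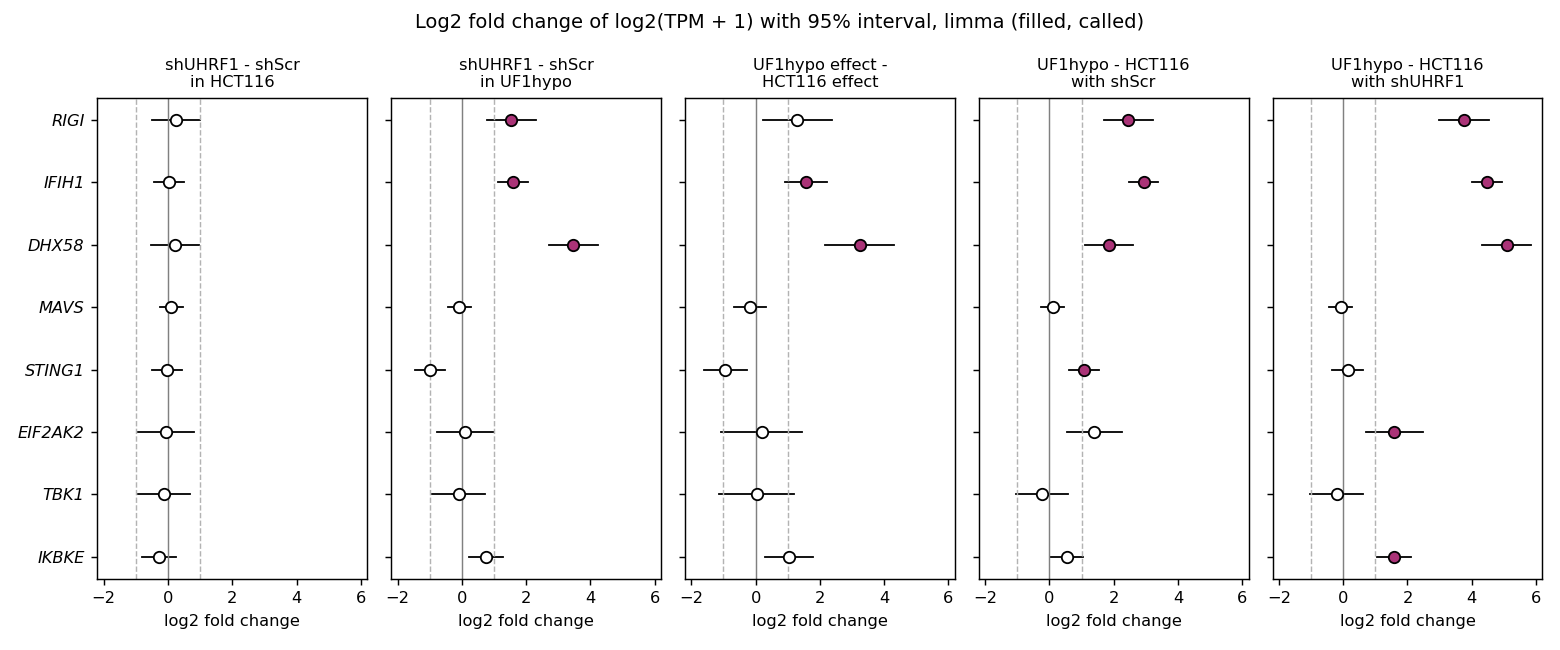
Log2 fold change of log2(TPM + 1) (horizontal axes) of the 8 tested genes in the 5 comparisons, with 95% intervals as lines, filled points for called genes and dashed lines at the fold limit of 1. No point is filled for the knockdown in HCT116, 3 are for the knockdown in UF1hypo, and MAVS and TBK1 are unfilled in every panel.

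Transcript GC content separated the genes by how their UF1hypo shUHRF1 libraries differed. TBK1 (37.0% GC), EIF2AK2 (38.5%), RIGI (39.9%) and IFIH1 (43.2%) were higher in replicate 2, by 1.32, 1.42, 0.94 and 0.46 on the log2 scale. MAVS (52.1%), STING1 (57.0%), DHX58 (58.5%) and IKBKE (58.7%) were lower in replicate 2, by gaps of -0.20, -0.32, -0.38 and -0.40. The median gap over all genes was 0.93 for transcripts under 40% GC and -0.36 for those of 55 to 60%, and EIF2AK2 and TBK1 lay above the third quartile of the transcripts under 40% GC. After a correction of each library for transcript GC content and length the gaps shrank to 0.32, 0.53, 0.15 and -0.08 for the AT-rich group and to between -0.03 and 0.04 for the others. With that correction DHX58 (log2 fold change 3.26), IFIH1 (1.69) and RIGI (1.68) were called as before in the UF1hypo knockdown, and STING1 was called lower (-1.19, limma adjusted p = 0.000491). Of all 13620 genes tested there, 884 were called higher and 227 lower with the correction, against 1007 and 155 without it.

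**Figure D2:**
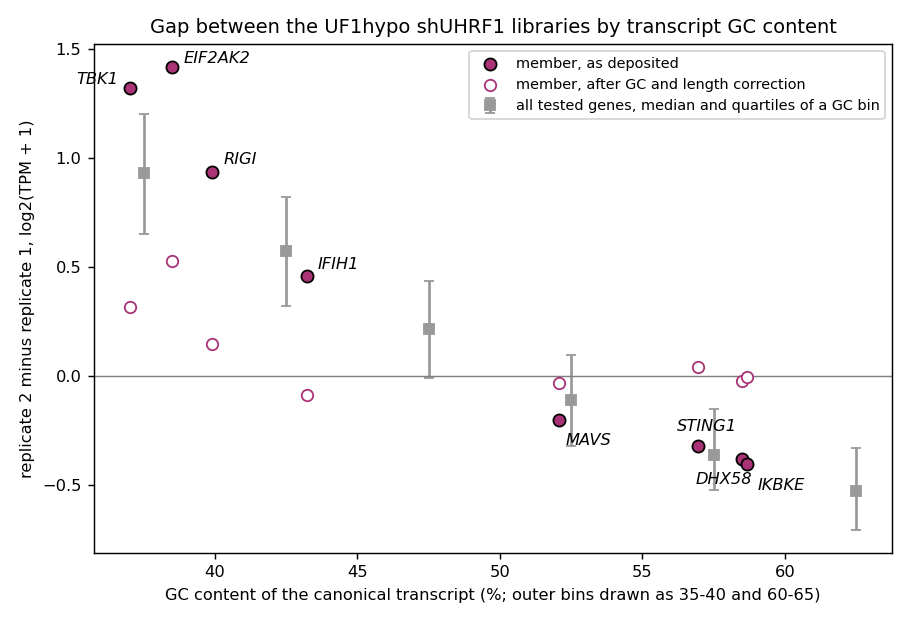
Gap between the UF1hypo shUHRF1 libraries (replicate 2 minus replicate 1 of log2(TPM + 1), vertical axis) against the GC content of the canonical transcript (horizontal axis) for the 8 detected genes, as deposited (filled) and after GC and length correction (open). Grey squares and bars give the median and quartiles of all tested genes in each GC bin, which fall from 0.93 to -0.52.

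The difference of the knockdown effects, UF1hypo minus HCT116, was tested as an interaction. It called DHX58 (3.24, SE 0.468, limma adjusted p = 0.00774) and IFIH1 (1.56, SE 0.287, adjusted p = 0.0194), 2 of the 8, where 5.09% of the 13781 genes tested were called, 4.54% as higher and 0.559% as lower. That share was 15.7% without UF1hypo shUHRF1 replicate 2 (10.1% higher and 5.55% lower), 7.91% without replicate 1, and 1.24% to 1.97% without any 1 of the 6 other libraries. RIGI had a difference of 1.30 (SE 0.475, adjusted p = 0.184), IKBKE 1.04 (SE 0.322, adjusted p = 0.118) and STING1 -0.94 (SE 0.295, adjusted p = 0.12), none of which was called. With the GC content and length correction RIGI (1.36, limma adjusted p = 0.0075) and STING1 (-1.15, adjusted p = 0.00621) were called, and also with the replicate block added (adjusted p 0.00857 and 0.00707). That correction also raised the calls over all genes from 702 to 1047, with 778 higher (from 625) and 269 lower (from 77). With the block added the count was 984. The call of IFIH1 was lost when any 1 of the 6 libraries other than UF1hypo shUHRF1 was left out (limma adjusted p 0.0842 to 0.103, difference 1.48 to 1.64). Without UF1hypo shUHRF1 replicate 1, RIGI (1.77) and STING1 (-1.10) were called as well, and without replicate 2, IKBKE (1.24) was. Of the marker lists, CD3D (1.90), 1 of the 5 leukocyte markers tested, and CDH1 (1.14), 1 of the 6 of epithelium, had a called difference here too, and their part in the results was not tested. CD3D was at or below 1 TPM in all 6 libraries outside UF1hypo shUHRF1 and entered through that group.

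UF1hypo against HCT116 with shScr compared the clone with its parent, neither with UHRF1 knocked down. IFIH1, RIGI, DHX58 and STING1 were called higher in the clone, 4 of the 8, where 3.54% of the 12856 genes tested were called and 2.59% as higher. IFIH1 was higher by 2.93 on the log2 scale (SE 0.203, limma adjusted p = 0.000131), 9.12-fold in mean TPM, and RIGI by 2.46 (SE 0.331, adjusted p = 0.0041), 6.59-fold. DHX58 was higher by 1.85 (SE 0.327, adjusted p = 0.015) and STING1 by 1.08 (SE 0.208, adjusted p = 0.0217), 2.18-fold. EIF2AK2 had a larger estimate than STING1 (1.40, SE 0.381, 2.75-fold) with a limma adjusted p of 0.0797, and was called without either UF1hypo shUHRF1 library (adjusted p 1.74e-05 and 2.07e-05) and after GC correction (1.74). IKBKE was at 0.54 (adjusted p = 0.26), MAVS at 0.10 and TBK1 at -0.24. The same UF1hypo shScr libraries are the controls of the knockdown above, so the 2 comparisons are not independent of each other.

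With 2 libraries a group these calls leaned on single libraries, and without any 1 of the 4 shScr libraries 1.17% to 1.49% of all genes were called. IFIH1 was called with each library left out in turn. RIGI lost its call without HCT116 shScr replicate 2 (2.27, limma adjusted p = 0.0518). DHX58 lost it without any 1 of the 4 shScr libraries (1.57 to 2.13, adjusted p 0.0584 to 0.136). STING1 lost it without any 1 of the 4 shScr libraries (0.91 to 1.24, adjusted p 0.0882 to 0.257) or without either HCT116 shUHRF1 library (adjusted p 0.0646 and 0.0647), and it fell short after GC correction (0.91, adjusted p = 0.00263). UHRF1 had a log2 fold change of -0.91 (SE 0.222, adjusted p = 0.0545) between the lines. KRT8, KRT18 and KRT19 were called higher in the clone as well, 3 of the 6 epithelial markers tested, and the summed epithelial list was 4354 and 4408 TPM in HCT116 shScr and 8813 and 9086 in UF1hypo shScr; the part of this in the results was not tested.

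UF1hypo against HCT116 with shUHRF1 set the groups with the lowest UHRF1 levels side by side. DHX58 (5.09, SE 0.331), IFIH1 (4.49, SE 0.203) and RIGI (3.76, SE 0.336) were called higher in UF1hypo, with mean TPM 47.9-fold, 27.5-fold and 16.6-fold above HCT116. The DHX58 fold rested on HCT116 shUHRF1 libraries of 1.14 and 3.01 TPM. Its log2 fold change was 4.63 without HCT116 shUHRF1 replicate 1 and 5.54 without replicate 2. EIF2AK2 (1.59, SE 0.387, limma adjusted p = 0.0164) and IKBKE (1.57, SE 0.228, adjusted p = 0.00158) were called too, 5 of the 8 in all, where 16.2% of the 13650 genes tested were called, 12.2% as higher and 3.92% as lower. Without UF1hypo shUHRF1 replicate 2 those shares were 16.2% and 12.5%. STING1, called between the lines with shScr, was at 0.13 here (95% interval -0.34 to 0.61), MAVS at -0.08 and TBK1 at -0.20. The helicases and IKBKE were called with each library left out. EIF2AK2 lost its call without HCT116 shUHRF1 replicate 1 or 2 (adjusted p 0.0822 and 0.109) and without UF1hypo shUHRF1 replicate 2, which moved its log2 fold change to 0.88. The UHRF1 difference between these groups was -0.25 (limma adjusted p = 0.409, 32.2 ± 0.718 against 27.6 ± 9.14 TPM). Of the marker lists, CDH1 (1.52), KRT19 (1.23) and KRT18 (1.05), 3 of the 6 epithelial markers tested, CD3D (2.08), 1 of 4 of leukocytes, and COL1A1 (1.01), the single fibroblast marker tested, were called higher too. All 4 leukocyte markers were at or below 1 TPM in both HCT116 shUHRF1 libraries and entered the test through UF1hypo. The summed lists in HCT116 shUHRF1 and UF1hypo shUHRF1 were 5485 to 5604 and 9857 to 12706 TPM for epithelium, 3.22 to 3.44 and 7.57 to 12.3 for leukocytes, and 22.7 to 26.9 and 38.7 to 66.9 for fibroblasts and endothelium; their part in the results was not tested.

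HCT116 shUHRF1 and UF1hypo shScr can also be set side by side, at 31.7 and 32.7 against 47.3 and 50.6 TPM of UHRF1 RNA, which is not a measure of its protein. RIGI, IFIH1 and DHX58 were 5.32-fold, 8.86-fold and 3.86-fold higher in mean TPM in UF1hypo shScr, without overlap of libraries. The HCT116 shUHRF1 libraries of DHX58 were 2.65-fold apart (1.14 and 3.01 TPM), so its ratio depends on which of them is used. STING1 (2.27-fold), EIF2AK2 (2.90-fold) and IKBKE (1.98-fold) were also higher there without overlap, and MAVS and TBK1 overlapped. This pair of groups differs in both line and hairpin and was not tested.

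Other genes of the pathways were read from lists by function. Among 26 regulators and partners of RNA sensing, all tested, 3 rose and none fell on knockdown in UF1hypo, 11.5% beside the 7.39% of all genes called higher, and 23 were not called. Those were USP18 (2.11), a protease that removes ISG15, NLRC5 (1.95), a regulator of MHC class I genes, and ZNFX1 (1.16), a helicase on mitochondria, all with limma adjusted p of 0.00258 or lower. TRIM25, the ubiquitin ligase of RIG-I, was not among them. It was at 83.9 and 83.1 TPM in HCT116 shScr and 192 and 165 in UF1hypo shUHRF1, groups that differ in both line and hairpin. In the clone with shScr, DDX60 (3.25), USP18 (2.25) and NLRC5 (1.12) were called higher and RNF125 (-1.15), a ligase that marks RIG-I for degradation, lower, 11.5% and 3.85% of the list beside 2.59% and 0.949% of all genes. The median log2 fold change of the list was 0.08 in the UF1hypo knockdown and 0.03 between the lines, beside 0.04 and -0.05 over all genes.

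Of 26 partners of DNA sensing, 25 were tested in the UF1hypo knockdown, of which 3 rose (12%, beside 7.39% of all genes) and 1 fell (4%, beside 1.14%). Without UF1hypo shUHRF1 replicate 2, 5 rose and 3 fell, beside 10.4% and 6.41% of all genes. ZBP1 (2.12), a sensor of Z-form nucleic acid, IFI16 (1.81), which binds DNA, and SAMHD1 (1.47), a dNTP hydrolase, rose, and HMGB2 (-1.60), a chromatin protein abundant in dividing cells, fell. ZBP1 was at or near 0 outside UF1hypo shUHRF1 (3.64 and 3.24 TPM), and IFI16 was at 0 and 0.0774 TPM in HCT116 shScr, 1.27 and 1.23 in UF1hypo with shScr and 4.66 and 10.04 with shUHRF1. Between the lines with shScr only SAMHD1 (1.22, limma adjusted p = 0.0131) was called of 23 tested (4.35%, beside 2.59% of all genes). ZBP1 was 1 of 2 genes of the list at or below 1 TPM in both UF1hypo shScr libraries, so it entered the test through the group where it was high.

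Of 22 genes that carry the signal from MAVS and STING1, 4 rose in the UF1hypo knockdown (18.2%, beside 7.39% of all genes) and none fell. IRF7 (1.84), the interferon-inducible transcription factor, went from 128 and 150 TPM to 608 and 407, and OPTN (1.37) and TICAM1 (1.13), both adaptors that meet TBK1, rose with it. TNFAIP3 (1.09), which encodes the ubiquitin editor A20 that restrains the same route, was the fourth. IRF3, the constitutive factor, was not among those 4. It was at 107 and 119 TPM in HCT116 shScr and 269 and 172 in UF1hypo shUHRF1, groups that differ in both line and hairpin. Between the lines with shScr IRF7 (3.08) was the single gene called (4.55%, beside 2.59%).

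Of 18 other readers and editors of double-stranded RNA, OAS2 (5.10), OASL (2.45), OAS1 (1.84) and OAS3 (1.40), of the 2′-5′ oligoadenylate synthetase family, rose in the UF1hypo knockdown (22.2%, beside 7.39% of all genes), and no other gene was called. OAS1 was at 0.513 and 0.117 TPM in the shScr libraries of HCT116, at 64.98 and 60.8 in UF1hypo with shScr and at 220.1 and 235 with shUHRF1. OAS2 differed in its steps, at 1.27 and 0.567 TPM in UF1hypo with shScr and 54.0 and 74.7 with shUHRF1. ADAR, the RNA editing enzyme, was at 140.2 and 137 TPM in HCT116 shScr and 296 and 303 in UF1hypo shUHRF1, groups that differ in both line and hairpin. With shScr, OAS1 (5.62), OAS3 (2.86) and OASL (2.56) were called between the lines (16.7%, beside 2.59%). OAS1 was 1 of 3 genes of the list at or below 1 TPM in both HCT116 shScr libraries, so it entered that test through UF1hypo.

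Of 18 genes of the PKR substrate pathway, ATF3 (1.16), DDIT3 (1.15) and CHAC1 (1.98), all targets of the integrated stress response, rose in the UF1hypo knockdown (16.7%, beside 7.39% of all genes). Between the lines with shScr none was called higher and 3 were called lower in UF1hypo (16.7%, beside 0.949%), TRIB3 (-2.09), CHAC1 (-2.08) and ASNS (-2.00), while EIF2AK2 had the higher estimate given above. CHAC1 (-1.27, limma adjusted p = 0.0437) was also the only gene of any of these lists called in the HCT116 knockdown, where it went from 77.6 and 76.0 TPM to 33.8 and 29.1. That call held in 12 of 23 alternatives. It was lost with the replicate block (limma adjusted p = 0.131), without the TPM filter (0.0799) and without any 1 of the HCT116 or UF1hypo shScr libraries. The log2 fold change of CHAC1 lay between -1.37 and -1.16 in all 23. ATF4, the factor whose translation the pathway controls, was at 659.8 and 712 TPM with shScr and 478 and 500.1 with shUHRF1 in HCT116. It lay between 334 and 345 TPM in the 4 UF1hypo libraries.

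At the output end, 13 of the 15 interferon and chemokine genes tested rose in the UF1hypo knockdown (86.7%, beside 7.39% of all genes) and none fell, with RSAD2 (3.83), IFIT3 (3.38) and IFNL1 (3.30) the largest in size. Of those 15, 5 were at or below 1 TPM in both UF1hypo shScr libraries and entered the test through UF1hypo shUHRF1. IFNL1, a type III interferon, was at 0.627 and 0 TPM in UF1hypo with shScr and 14.0 and 9.55 with shUHRF1, whereas IFNB1 reached 0.385 TPM at most and CXCL10 0.467. Between the lines with shScr 9 of 10 were called higher (90.0%, beside 2.59%), among them IFI44 (4.68), IFIT1 (4.52) and ISG15 (3.43), and 4 of the 10, IFI44 included, were at or below 1 TPM in both HCT116 shScr libraries. ISG15, a ubiquitin-like protein, went from 222 and 189 TPM in HCT116 shScr to 2054 and 2379 in UF1hypo with shScr and 10509.9 and 6329.8 with shUHRF1. In HCT116 none of the 9 tested was called. Without UF1hypo shUHRF1 replicate 2 the UF1hypo count was 12 of 15, and with the GC correction 13.

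**Figure D3:**
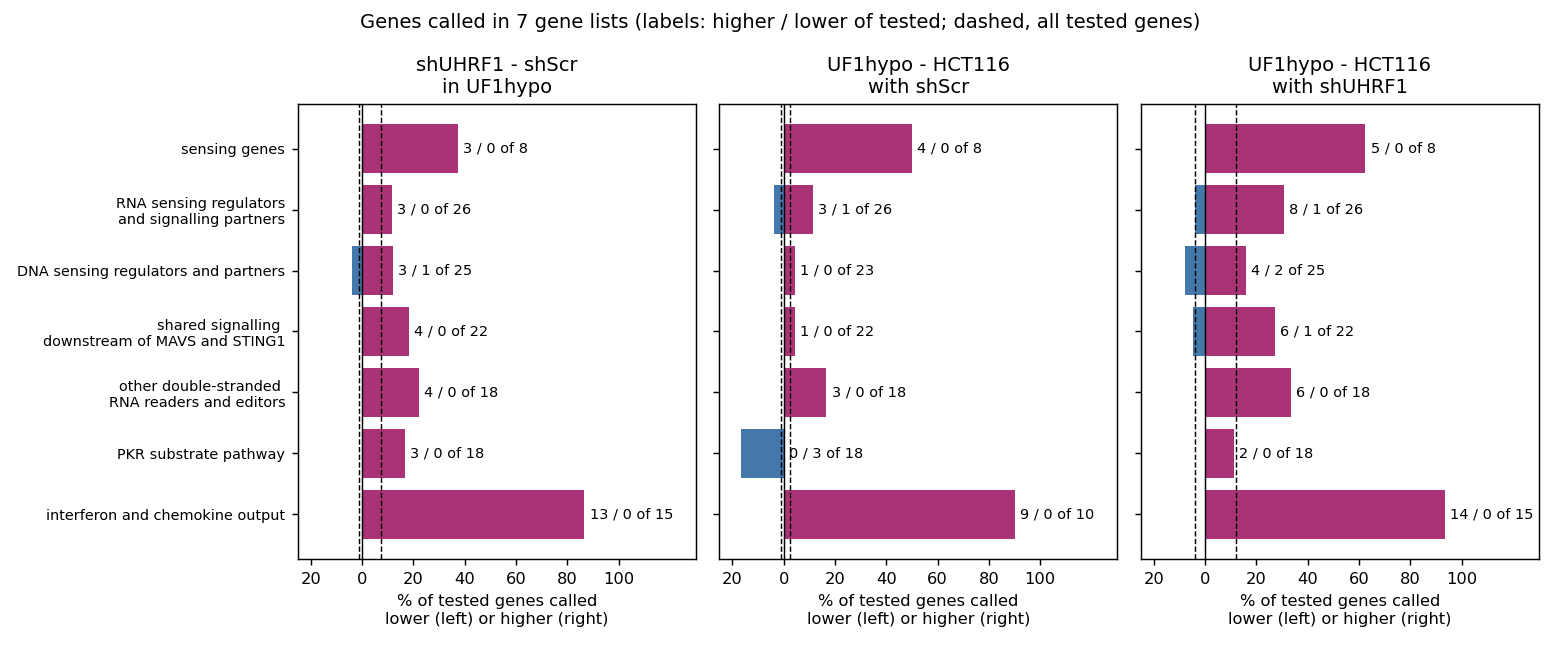
Share of tested genes called lower (left of 0) or higher (right of 0), in percent, for the sensing genes and 6 lists of pathway genes in 3 comparisons, with counts beside each bar and dashed lines for all genes tested. Interferon and chemokine output has the largest share in each panel, and the PKR substrate pathway is the only list with more genes called lower than higher, in the comparison of the lines with shScr. The output share includes genes that entered the test only through the group where they were high. These were 5 of 15 in the UF1hypo knockdown and 4 of 10 between the lines with shScr, and no share was taken without them.

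The genes most like each called member were found as the smallest root mean square difference of log2(TPM + 1), each gene centred on its own mean over the 8 libraries, among 13781 protein-coding genes. IFIH1 lay nearest to OAS3 (0.21), PARP9 (0.24) and IRF9 (0.25), beside a spread of IFIH1 itself of 1.94 about its mean. RIGI lay nearest to PARP9 (0.28), ITGB8 (0.28) and LAMP3 (0.30), and DHX58 to LGALS9 (0.34), APOL3 (0.35) and KRT20 (0.35). EIF2AK2 lay nearest to SP100 (0.24), TRIM38 (0.26) and PEG10 (0.27), STING1 to MALL (0.11), BCKDHA (0.13) and LGI3 (0.15), and IKBKE to MYO1C (0.06), RHOF (0.08) and ANKFY1 (0.08). STING1 and IKBKE varied less than the helicases (0.48 and 0.61 about their means), so small distances come more easily to them. The 8 libraries fall into 4 groups, so likeness here is mostly likeness between group means.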

How the data were processed

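PolyA RNA of 8 libraries in 4 groups of 2 (HCT116 or UF1hypo, shScr or shUHRF1) was sequenced paired-end. The submitters' processing notes name HISAT2 2.0.4, StringTie 2.1.4 and GRCh38, and the study's methods add Fastp. The deposited tables give for each gene a coverage signal, FPKM and TPM made by the authors with StringTie; TPM was analysed, FPKM was an alternative, and coverage gave depth. Records of 1 gene identifier were summed, and 60463 of 60649 identifiers matched GENCODE 44, 19942 of them protein-coding. Groups came from the sample titles, since the cell line label names HCT116 for all.

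Log2(TPM + 1) was fitted with limma 3.58.1 (R 4.3.3; empirical Bayes with a variance trend), all libraries in 1 fit, after a minimum of 1 TPM in 1 library of the comparison. The fit was tested on simulated data. TPM carries no counts, so no count test was run and depth was not turned into counting intervals. Alternatives were a pseudocount of 0.1, other filters, FPKM, other scalings, library weights, a correction for transcript GC content and length in 10 bins, a replicate block and leaving out each library. Named genes were the 9 members, UHRF1, up to 3 called genes of the largest size in each list and comparison, and the 3 nearest genes of each called member; TRIM25, IRF3, ADAR, ATF4, IFNB1, CXCL10, TNFAIP3, RNF5, TANK, AIM2, IFNL2, IFNL3 and CCL5, the fourth called gene where all 4 of a list are named, a gene that overlaps a member, and genes of the marker lists given by TPM alone, were chosen after their values were seen. The members and lists were chosen with earlier results of these data known.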

Additional observations from a re-analysis of the deposited data

Results flagged for a closer look

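The effect of the UHRF1 hairpin differed between the lines for DHX58, with an interaction of 3.24 on the log2 scale (limma adjusted p = 0.00774), where both UF1hypo shUHRF1 libraries lay above both controls and the HCT116 libraries overlapped. IFIH1 likewise differed, by 1.56 (adjusted p = 0.0194), a call that did not hold without any 1 of the HCT116 or UF1hypo shScr libraries. For IKBKE both shUHRF1 libraries lay below their controls in HCT116 and above them in UF1hypo, a difference of 1.04 that limma did not call (adjusted p = 0.118). In HCT116 the closest libraries were at 4.02 and 4.13 TPM, and the log2 fold change of -0.29 was not called there (limma unadjusted p = 0.243).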

How the results depend on the processing

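Of the changes of setting tried on single genes, 804 kept direction and call, 26 lost a call, 19 gained one and 31 changed sign, and the members called kept within 1.5 times of their count in 97 repeats and moved further in 13. DHX58 and IFIH1 were called in the UF1hypo knockdown in all 23 alternatives and RIGI in 19 of 23. RIGI also lost its call there with only the libraries of that comparison in the fit (adjusted p = 0.0785) and with library weights (0.124), and STING1 was called lower with a pseudocount of 0.1 (-1.03), median-ratio scaling (-1.04) and quantile normalization (-1.01). With the GC content and length correction, with or without the replicate block, 4 members were called in the difference of the knockdown effects, RIGI and STING1 beside DHX58 and IFIH1. Of all 13781 genes tested, the correction called 778 higher and 269 lower there, against 625 and 77 in the main fit. With the block added these counts were 726 and 258. The replicate block alone left the members called at 0, 3, 2, 4 and 5 in the 5 comparisons in the order given above. It moved the genes called in the HCT116 knockdown from 9 to 1, in the difference from 702 to 471, in the UF1hypo knockdown from 1162 to 1110 and between the lines with shScr from 455 to 369. Same-numbered libraries deviated together at -0.402 for the UF1hypo groups and at -0.029 to 0.055 otherwise, so no pairing by number was seen. The GC trends of the UF1hypo libraries enter these values too, so they cannot tell whether the samples were paired. With the numbers of UF1hypo shUHRF1 crossed, an alternative chosen after seeing the data, 3 members and 1207 genes were called in the UF1hypo knockdown. Leaving out 1 library at a time gave 1 to 4 members called in the difference, 1 to 5 between the lines with shScr, 2 to 4 in the UF1hypo knockdown, 4 to 5 between the lines with shUHRF1 and 0 in the HCT116 knockdown.

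Sign changed in estimates that were not called. For the HCT116 knockdown STING1 moved to 0.0023 with median-ratio scaling and 0.014 with quantile normalization, and EIF2AK2 to 0.018 with the GC correction, with or without the block. The same correction gave TBK1 0.11 in the UF1hypo knockdown, 0.053 between the lines with shScr and 0.25 with shUHRF1, and STING1 -0.24 in the last; median-ratio scaling gave TBK1 -0.064 in the difference. With 1 library left out at a time, the HCT116 knockdown ranged from -0.024 to 0.50 for RIGI, -0.047 to 0.11 for IFIH1, -0.23 to 0.68 for DHX58, -0.21 to 0.12 for STING1 and -0.15 to 0.0068 for EIF2AK2. The UF1hypo knockdown ranged from -0.17 to 0.023 for MAVS, -0.59 to 0.82 for EIF2AK2 and -0.76 to 0.56 for TBK1. The difference ranged from -0.52 to 0.89 for EIF2AK2 and -0.62 to 0.70 for TBK1. Between the lines with shUHRF1 the range was -0.18 to 0.018 for MAVS, -0.024 to 0.29 for STING1 and -0.86 to 0.46 for TBK1. The cause was not tested. Counts over all genes moved more: 0 to 101 in the HCT116 knockdown against 9, 539 (library weights) to 2255 (without UF1hypo shUHRF1 replicate 2) in the UF1hypo knockdown against 1162, 171 to 2142 in the difference against 702, 149 to 598 between the lines with shScr against 455, and 1495 to 3859 with shUHRF1 against 2205. A group left with 1 library was assumed to vary like the others.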

Other observations

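In TPM, IKBKE RNA was at most 0.136 of the TBK1 level in the 4 HCT116 libraries and 0.207 and 0.261 of it in UF1hypo with shScr. With shUHRF1 in UF1hypo it was 0.832 and 0.238 of it, where the first value is from the library with the low TBK1. The listed coverage gave another picture. In HCT116 shScr it was 8.80 and 8.24 for IKBKE and 9.98 and 11.2 for TBK1. In UF1hypo shScr it was 16.6 and 15.2 against 13.1 and 9.82, and with shUHRF1 35.6 and 23.5 against 6.27 and 16.0. The ratio of these genes therefore depends on the measure.

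Between the lines with shUHRF1, where 12.2% of all genes were called higher and 3.92% lower, 8 of the 26 RNA sensing partners were called higher (30.8%), led by USP18 (4.53), NLRC5 (3.47) and DDX60 (3.10), and 1 lower, RNF5 (-1.02), a ligase of MAVS and STING. Of the 25 DNA sensing partners tested 4 were higher (16.0%) and 2 lower (8%), with IFI16 (2.95) and SAMHD1 (2.52) up and HMGB2 (-2.48) down. Of the 22 genes of shared signalling 6 were higher (27.3%) and 1 lower, TANK (-1.18), a scaffold of TBK1. Of the 18 other readers of double-stranded RNA 6 were higher (33.3%), led by OAS1 (7.65), of the 18 PKR pathway genes 2 (11.1%), DDIT3 (1.54) and CHAC1 (1.17), and of the 15 output genes 14 (93.3%). Of the genes tested, 1 RNA sensing partner, 3 DNA sensing partners, 3 readers and 6 output genes, OAS1, IFI16 and ZBP1 among them, were at or below 1 TPM in both HCT116 shUHRF1 libraries and entered through UF1hypo. In the difference of the knockdown effects, where 4.54% of all genes were called higher and 0.559% lower, 4 of 26, 3 of 25, 2 of 22, 4 of 18, 5 of 18 and 9 of 15 genes of these lists in the same order were called higher, and 1 DNA sensing partner lower. Of the genes tested there, 2 DNA sensing partners (AIM2 and ZBP1) and 4 output genes (IFNL1, IFNL2, IFNL3 and CCL5) were at or below 1 TPM in all 6 libraries outside UF1hypo shUHRF1 and entered through that group. These comparisons share libraries with those above. The summed list of fibroblast and endothelial markers was 21.5 to 29.1 TPM in 6 libraries and 66.9 and 38.7 in UF1hypo shUHRF1, of which COL1A1 made up 65.5 and 37.7.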
